A study of Mus musculus with 40 samples.

Results

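Endothelial cells line the blood vessels of the brain, and 32 genes that are characteristic of these cells and of the blood-brain barrier were followed in the hippocampus and frontal cortex of mice that received human gut microbiota. The genes were listed by name for their known part in brain endothelium, at a time when earlier results of these data were known, and all 32 were found among the 47643 gene rows of the deposited count tables. The recipients were wild-type germ-free Swiss Webster females of 6 to 8 weeks that were gavaged with a stool suspension from people with refractory epilepsy. Stool given before the donors started a clinical ketogenic diet (KD) made pre-KD recipients, and stool given while the same donors were on the diet made post-KD recipients. All recipients ate the same control diet, none ate the KD itself, and tissue was taken on day 4 after colonization. There were 10 donors, so that 10 pre-KD and 10 post-KD libraries were made from each region, 40 libraries in all, with each library pooled from the 6 mice of a cohort. The libraries therefore replicate donors and not single mice, and no recipient without a human microbiota was compared here.

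Brain endothelial cells form a barrier because tight junctions seal the clefts between them, few vesicles cross them, and transporters in their membranes decide what enters and leaves the brain. Claudin-5 (Cldn5), occludin (Ocln) and ZO-1 (Tjp1) belong to the tight junction, VE-cadherin (Cdh5), PECAM-1 (Pecam1) and Esam hold the cells together, and Abcb1a (P-glycoprotein) and Abcg2 pump drugs, several antiseizure drugs among them, back into the blood. VEGF receptors (Flt1, Kdr), the angiopoietin receptor Tie2 (Tek) and its relative Tie1 control vessel growth and stability, and transcription factors of the ETS family (Erg, Fli1, Ets1) and of the SOX family (Sox17, Sox18) drive the endothelial program.

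Promoters were read because ETS and SOX factors, which are themselves among the 32 genes, act on endothelial promoters. RefSeq promoters of GRCm38.p6, each of 300 bases from 250 before to 50 after an annotated start, were matched for 20 of the 32 genes by symbol and gave 28 sequences. The core of the ETS motif, GGAAG or its reverse complement CTTCC, stood in 21 of the 28 (75.0%) and in 71.4% of all 32851 promoters in the table. Either of the SOX cores ACAAAG and ACAATG, on either strand, stood in 9 of the 28 (32.1%) and in 28.6% of all promoters, and no SOX match overlapped an ETS match. The shares in the endothelial genes were thus close to those of all promoters, and a match describes letters and not a bound site. Promoters of 4 genes to which the results below return are shown 5′ to 3′ on the strand of the gene, with each ETS core in capitals. Flt1 had 3 cores (chr5:147725962-147726261, minus strand), a start of Slc3a2 had 4 (chr19:8713848-8714147, minus strand), Ocln had 1 at the start shown (chr13:100552449-100552748, minus strand) and Cldn5 had none (chr16:18776597-18776896, plus strand). The other of the 2 Ocln starts (chr13:100552669-100552968) lay further upstream, and its promoter held no ETS core.
Flt1: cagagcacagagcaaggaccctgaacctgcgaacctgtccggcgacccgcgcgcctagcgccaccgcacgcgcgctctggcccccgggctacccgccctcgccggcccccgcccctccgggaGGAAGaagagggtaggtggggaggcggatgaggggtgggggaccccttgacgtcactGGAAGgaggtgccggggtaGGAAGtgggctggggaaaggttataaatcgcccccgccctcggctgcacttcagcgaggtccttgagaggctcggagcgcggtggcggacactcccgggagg
Slc3a2: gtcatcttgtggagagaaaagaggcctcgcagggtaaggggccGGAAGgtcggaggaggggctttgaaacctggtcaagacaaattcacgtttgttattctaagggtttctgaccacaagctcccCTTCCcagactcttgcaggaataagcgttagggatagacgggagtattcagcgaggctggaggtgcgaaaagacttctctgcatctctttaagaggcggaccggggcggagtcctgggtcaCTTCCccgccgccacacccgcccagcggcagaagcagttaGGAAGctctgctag
Ocln: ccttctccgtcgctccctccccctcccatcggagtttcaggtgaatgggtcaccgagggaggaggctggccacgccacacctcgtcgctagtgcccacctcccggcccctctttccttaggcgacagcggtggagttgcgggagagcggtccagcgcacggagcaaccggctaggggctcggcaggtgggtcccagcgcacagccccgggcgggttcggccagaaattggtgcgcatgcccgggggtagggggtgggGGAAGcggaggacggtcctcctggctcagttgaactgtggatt
Cldn5: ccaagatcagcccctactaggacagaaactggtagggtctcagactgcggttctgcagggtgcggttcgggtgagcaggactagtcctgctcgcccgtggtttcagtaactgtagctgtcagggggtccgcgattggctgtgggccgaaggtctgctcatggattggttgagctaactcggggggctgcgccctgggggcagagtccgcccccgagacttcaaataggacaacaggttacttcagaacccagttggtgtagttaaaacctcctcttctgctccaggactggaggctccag

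The libraries were shallow and held between 1140756 and 2095352 gene counts, and levels are given as CPM, the count of a gene scaled to a common library size by the TMM method over all 40 libraries, so that 1 CPM is about 1 to 2 reads. The 8 neuronal markers that were looked at summed to a mean of 7653 CPM in hippocampal and 7943 CPM in frontal cortical libraries, so both tissues carried the markers of brain. Endothelial genes made up a small part of the RNA, and the 32 genes together took between 592 and 1309 counts in a library. In bulk tissue, fewer endothelial cells and less RNA per cell cannot be told apart.

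Single endothelial genes were often not seen at all in a library. Of the 640 values in the hippocampus (32 genes in 20 libraries), 153 were 0, and of the 640 in the frontal cortex 97 were 0. Poisson counting at the regional mean of each gene would give 9.29 hippocampal and 12.7 frontal cortical zeros if each read were a separate molecule, and copies made by PCR, which were not marked in these counts, also raise the number of zeros. Across libraries of a region the coefficient of variation of a gene was 94.0% at the median in the hippocampus (37.7% to 222%) and 73.5% in the frontal cortex (23.0% to 216%). A library held reads of 18 to 31 of the 32 genes in the hippocampus and of 20 to 32 in the frontal cortex. Pre-KD hippocampus replicate 5 had the fewest, 18, with Cldn5, Kdr, Eng, Mfsd2a, Ets1, Podxl and Ly6a among those at 0, and yet the highest level of Slc3a2, Erg, Sox17 and Esam in its group, and values without it are given below where they change a call. The genes that were never at 0 in either region numbered 9, and they were Flt1, Ptprb, Slco1a4, Slco1c1, Abcb1a, Abcg2, Slc7a5, Slc3a2 and Ly6c1.

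**Figure D1:**
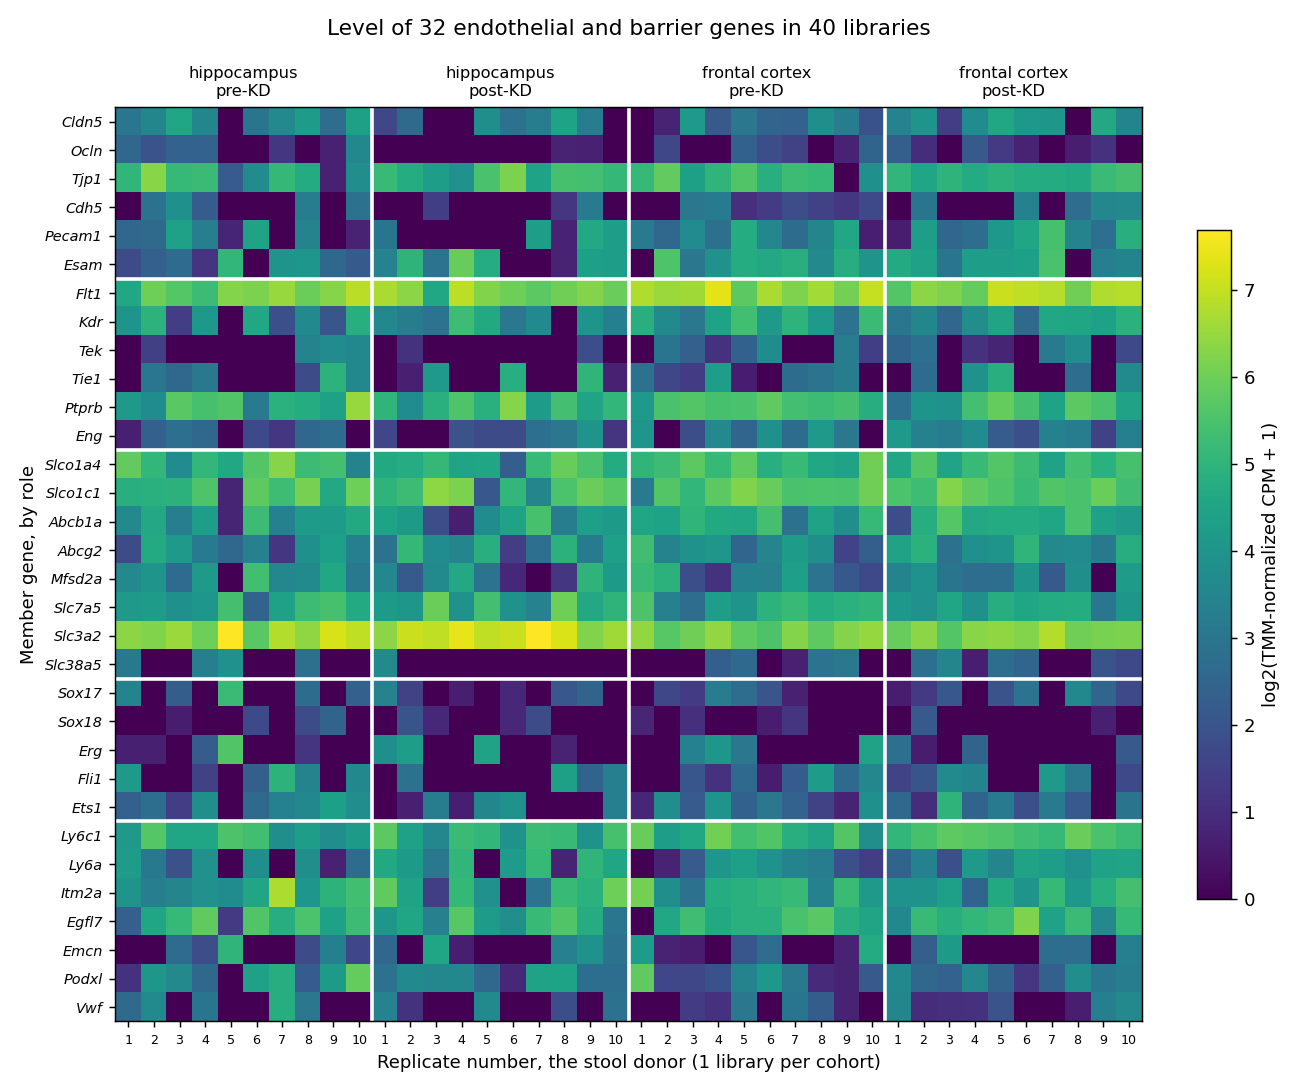
Heat map of the level of the 32 genes (rows, by role from junctions at the top to surface and secreted proteins at the bottom) in the 40 libraries (columns, by group and replicate number), as log2 of TMM-normalized CPM plus 1. Slc3a2 and Flt1 are bright in every library, while dark cells mark the 153 hippocampal and 97 frontal cortical values at 0.

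Per length, the order of the genes was much alike in both regions. Levels were divided by the exon length of each gene in the GENCODE M21 annotation, which assumes reads along the whole transcript. The methods and the labels name a TruSeq kit, but the study's list of materials names a kit that reads only 3′ ends (QuantSeq FWD), and with such reads the levels per kb would be too low for long genes and this order would not hold. In the hippocampus Slc3a2, the heavy chain of the amino acid transporter LAT1 and a protein that many cell types make, was highest at 32.9 ± 12.4 CPM per kb (SD, n = 20), followed by the surface antigen gene Ly6c1 at 16.6 ± 8.19, Itm2a, a membrane protein gene, at 15.3 ± 14.3 and Ly6a (Sca-1) at 10.9 ± 9.53. In the frontal cortex Ly6c1 was highest at 24.1 ± 8.68 CPM per kb, and Slc3a2 followed at 20.2 ± 4.65, Itm2a at 13.9 ± 8.47 and Slco1c1, a thyroid hormone transporter, at 9.26 ± 2.92. The SDs of neighbours in either order overlapped. Vwf, the von Willebrand factor of clotting that large vessels make most of and the gene with the longest exon sequence of the 32, was lowest in both regions, at 0.279 ± 0.418 (hippocampus) and 0.183 ± 0.238 CPM per kb (frontal cortex).

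The sum over the 32 genes varied less between libraries than single genes did, as a sum over many genes does when they vary independently. With 10 libraries in each group, hippocampal sums were 581 ± 100 CPM (SD) pre-KD and 606 ± 81.4 CPM post-KD, and frontal cortical sums were 615 ± 74.7 and 614 ± 88.2 CPM, with coefficients of variation between 12.1% and 17.2%. The lowest sums were in pre-KD hippocampus replicate 1 at 414 CPM and post-KD frontal cortex replicate 1 at 428 CPM, and the highest was in pre-KD hippocampus replicate 10 at 761 CPM. Between the cohorts of the same donor the sum was higher post-KD in 5 of 10 hippocampal and 8 of 10 frontal cortical pairs, and the means differed by less than 1 SD in both. The SD of the sum was 1.11, 0.996, 1.09 and 1.49 times the SD that 32 genes varying independently would give, in the order of the groups above. Slc3a2 alone made up 19.55% of the hippocampal sum and Flt1 15.5% of the frontal cortical one. Without Slc3a2 and its partner Slc7a5, which other cells also use, the sum was 455 ± 89.3 CPM pre-KD and 448 ± 86.0 CPM post-KD in the hippocampus, and 523 ± 67.7 and 520 ± 76.9 CPM in the frontal cortex.

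**Figure D2:**
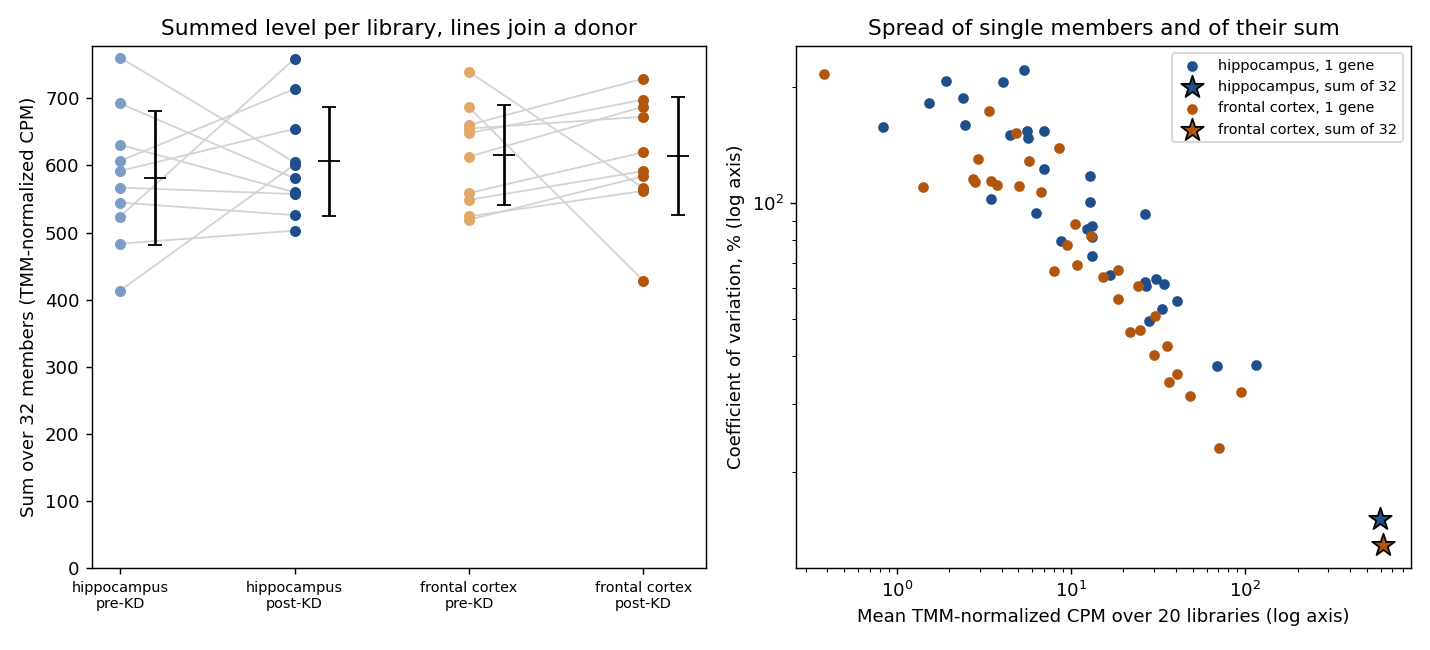
Left, the summed level of the 32 genes in each library (y axis, TMM-normalized CPM) in the 4 groups, with grey lines joining the libraries of 1 donor and black bars for the mean ± SD of 10 libraries. Right, the coefficient of variation over the 20 libraries of a region (y axis, log scale) against the mean level (x axis, log scale) for each gene (points) and for their sum (stars), where the spread falls as the level rises and the sums vary least.

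Post-KD recipients were compared with pre-KD recipients to ask whether the microbiota of donors on the diet altered gene expression in either region. In the hippocampus, 1 of the 32 genes, Ocln, passed an unadjusted p under 0.05 (edgeR quasi-likelihood test), the threshold that the study applied, where 10.1% of the 17529 genes tested did, and 5.48% did so with a lower level post-KD. None of the 32 passed an adjusted p under 0.05 with edgeR (Benjamini-Hochberg over all genes tested) or DESeq2, and 0.0057% of all genes, which is 1 gene, did with edgeR. Of the 32 genes 12 had a positive and 20 a negative log2 fold change, with a median of -0.06 beside -0.01 over all genes. That median ran from -0.19 without replicate 1 to 0.01 without replicate 6, when 16 were positive and 16 negative, and 14 of the 32 values turned sign when 1 of the donors was left out. Among the frontal cortical values, none of the 32 passed either threshold with edgeR or with DESeq2, where 9.68% of the 17873 genes tested had an unadjusted p under 0.05 and 0.0056% an adjusted one. There 18 of the 32 had a positive log2 fold change, with a median of 0.10 beside 0.01 over all genes. This median ran from -0.05 without replicate 3, when 13 were positive and 19 negative, to 0.15 without replicate 6. Of the 32 frontal cortical values 16 turned sign when 1 of the donors was left out. The background depended on the tool, and with DESeq2 1 of the 32 hippocampal genes (Ocln) passed the unadjusted threshold beside 569 of 20964 genes. The 9 hippocampal genes whose log2 fold change had a standard error (SE) under 0.5 lay between -0.34 and 0.34, with 95% intervals reaching from -1.23 to 1.24. In the frontal cortex 14 genes were as precise, with fold changes between -0.48 and 0.40 and intervals reaching from -1.33 to 1.37. Outside these 9 and 14 genes a 2-fold difference, which is 1 on the log2 scale, lay within 2 SE. For 14 of the 32 hippocampal and 9 of the 32 frontal cortical differences the SE was over 1. A 2-fold difference in these lay within 1 SE, with this depth and this spread between libraries.

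**Figure D3:**
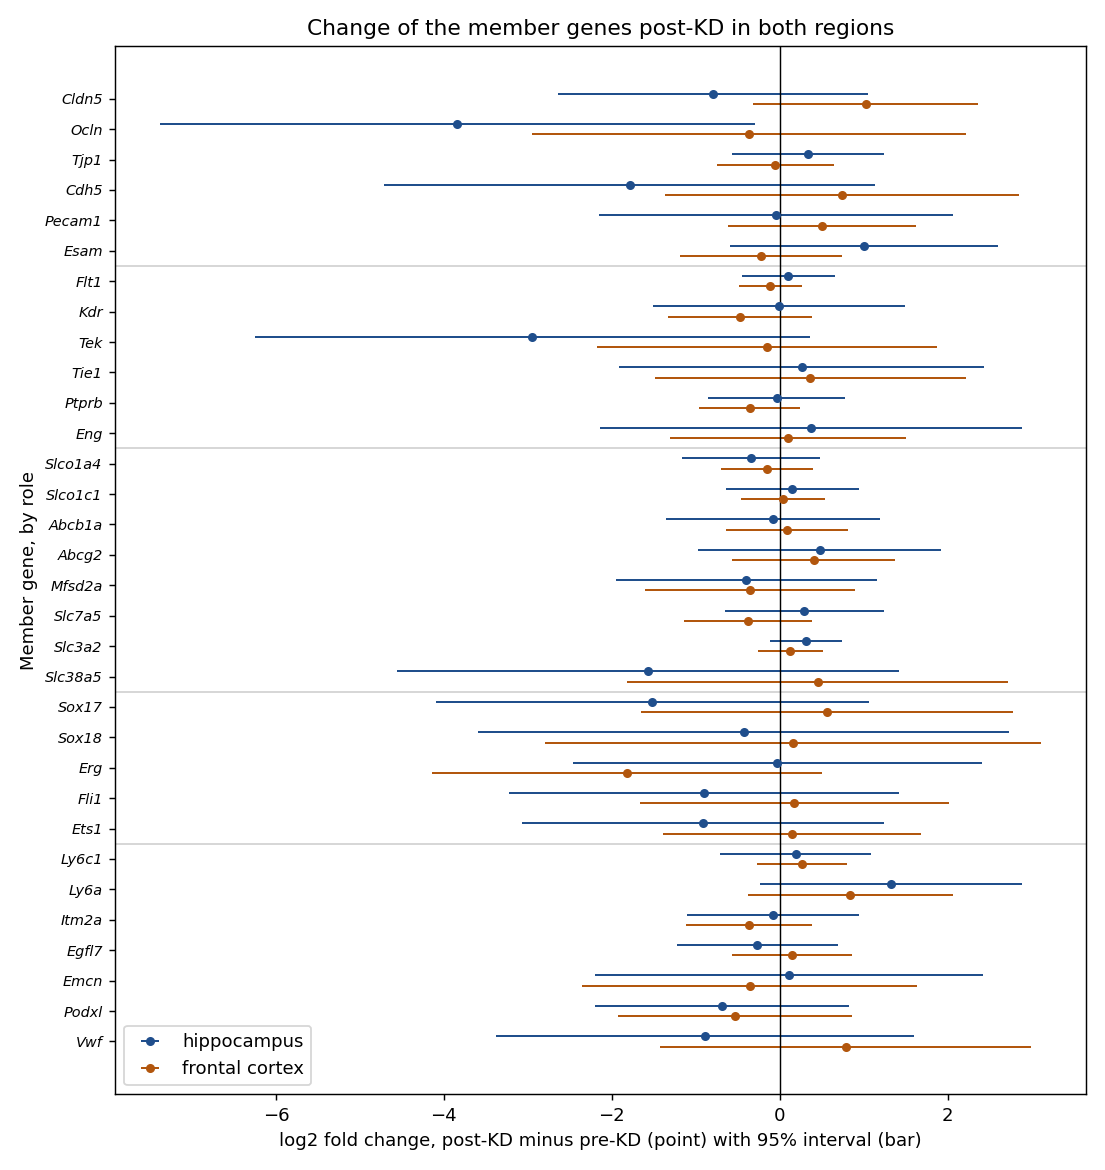
Log2 fold change post-KD against pre-KD (x axis) of each of the 32 genes (rows, by role) in the hippocampus (blue) and the frontal cortex (orange), with points for the estimate and bars for its 95% interval from 10 against 10 libraries. The bar of Ocln in the hippocampus, from -7.39 to -0.30, is the 1 that does not reach 0, and bars of weakly expressed genes such as Tek and Sox18 span several units.

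Among the junction genes, Ocln was low in every group. In pre-KD hippocampus it ranged from 0 to 11.1 CPM with a median of 2.13, and in post-KD hippocampus from 0 to 0.656 CPM with a median of 0. Replicate 10 held the pre-KD maximum, 3 pre-KD libraries were at 0 like 8 post-KD ones, and the groups overlapped. These levels rest on 47 counts in 7 pre-KD libraries and 2 counts in 2 post-KD libraries, a ratio of 21.6 (5.66 to 184, 95% interval for counting error only, exact method). With the spread between libraries included, the log2 fold change was -3.84 (SE 1.79), with an unadjusted p of 0.0135 and an adjusted p of 0.198 (edgeR quasi-likelihood test), and the level was lower in 6 of 10 donor pairs, higher in 2 and equal in 2. The call was lost when the donor was kept as a replicate block (log2 fold change -3.59, unadjusted p = 0.0997, edgeR). Adjusted p-values of Ocln under the alternatives ran from 0.127 to 1. Frontal cortical Ocln ranged from 0 to 4.54 CPM with a median of 1.28 pre-KD and from 0 to 4.02 CPM with a median of 0.832 post-KD, and the groups overlapped almost entirely (log2 fold change -0.37, SE 1.297). The gene lies on mouse chromosome 13 (100496507 to 100552718, minus strand, GRCm38). Its promoter shown above held a single ETS core, and that of its upstream start held none.

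Cldn5, the main claudin of brain endothelium, pointed in opposite directions in the regions. In the hippocampus it ran from 0 to 21.8 CPM (median 10.6) pre-KD and from 0 to 20.98 CPM (median 5.89) post-KD. Frontal cortical levels ran from 0 to 16.7 CPM (median 4.52) pre-KD and from 0 to 23.8 CPM (median 13.7) post-KD. Zero values came from 1 pre-KD and 3 post-KD hippocampal libraries and from 1 library of each frontal cortical group, and in both regions the groups overlapped over nearly all of their range. The log2 fold change was -0.79 (SE 0.93, lower in 7 of 10 donor pairs) in the hippocampus and 1.03 (SE 0.67, higher in 8 of 10 pairs) in the frontal cortex, and neither passed a threshold. Cldn5 in the frontal cortex reached an unadjusted p of 0.0392 (adjusted p = 0.482, edgeR) when the libraries of replicate 3 were left out.

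Whether the post-KD change was unequal in the 2 regions was tested for every gene with the cohort as a block. Cldn5 was the 1 member of 32 with an unadjusted p under 0.05, where 2.22% of the 19422 genes tested had one. Its change was higher in the frontal cortex than in the hippocampus by 2.87 on the log2 scale (SE 1.42, p = 0.0377, adjusted p = 1, edgeR). None of the 32 passed an adjusted p under 0.05 with edgeR or DESeq2, where 0.0154% of all genes did. Without the cohort block the difference in Cldn5 was 1.80, with an unadjusted p of 0.106 (edgeR), and no longer passed. Of the markers of other cell types, Hba-a1 and Hbb-bs, 2 of the 4 blood markers tested, also had an unadjusted p under 0.05 for this difference. Both were above 0, while the other 2 tested blood markers were below 0. An unadjusted p under 0.05 was also reached by 2 of the 10 pericyte and smooth muscle markers, Abcc9 at 4.23 and Cspg4 at -3.23. Of these 10 markers 4 were above 0 and 6 below. All 4 named genes were named after their values were seen and had an adjusted p of 1 (edgeR). Their part in the value of Cldn5 was not tested.

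The other junction genes gave no call in either region. Tjp1, the scaffold that ties claudins to actin, was 27.1 ± 22.5 CPM (SD, n = 10) pre-KD and 34.8 ± 16.7 post-KD in the hippocampus, and 30.5 ± 16.4 and 29.47 ± 6.22 in the frontal cortex, with log2 fold changes of 0.34 (SE 0.46) and -0.05 (SE 0.35). The hippocampal value of Tjp1 was 0.09 without replicate 6 and 0.73 without replicate 2. Its frontal cortical value lay between -0.24 without replicate 9 and 0.13 without replicate 2. Cdh5, the cadherin of endothelial contacts, had 65 counts pre-KD and 16 post-KD in the hippocampus, of which 12 came from replicate 9 alone. Its log2 fold change there was -1.78 (SE 1.48, p = 0.210, edgeR), and without the libraries of replicate 9 it was -3.45 with an unadjusted p of 0.0331. Frontal cortical libraries held for Cdh5 45 counts pre-KD and 76 post-KD (log2 fold change 0.74, SE 1.06). Pecam1 gave -0.05 (SE 1.07) and 0.50 (SE 0.56), and Esam, another immunoglobulin-type adhesion molecule, gave 1.01 (SE 0.81) and -0.22 (SE 0.49), in the hippocampus and the frontal cortex respectively. Hippocampal Pecam1 lay between -0.65 without replicate 9 and 0.45 without replicate 6, and frontal cortical Pecam1 was 0.11 without replicate 7. Hippocampal Esam was 0.42 without replicate 4, which held 101 of its 268 post-KD counts, and frontal cortical Esam lay between -0.45 without replicate 1 and -0.02 without replicate 2.

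The receptors were measured at very different precision. Flt1, which encodes VEGF receptor 1 and lies on chromosome 5 (147561604 to 147726011, minus strand), ran from 23.2 to 117 CPM (median 66.9) pre-KD and from 23.3 to 119 CPM (median 69.02) post-KD in the hippocampus. Its frontal cortical level ran from 53.4 to 167 CPM (median 96.6) pre-KD and from 48.3 to 133 CPM (median 95.3) post-KD. The groups lay on top of each other in both regions, and the log2 fold changes were 0.10 (SE 0.28, 95% interval -0.45 to 0.65) and -0.11 (SE 0.19, 95% interval -0.48 to 0.26). Kdr, VEGF receptor 2, was 13.2 ± 11.3 CPM pre-KD and 13.2 ± 10.9 post-KD in the hippocampus, and 21.6 ± 11.8 and 15.6 ± 8.52 in the frontal cortex, where it was lower post-KD in 8 of 10 donor pairs without passing a threshold (log2 fold change -0.48, SE 0.43). Ptprb, the phosphatase that restrains Tie2, gave -0.04 (SE 0.41) in the hippocampus and -0.36 (SE 0.30) in the frontal cortex.

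Tek, which encodes Tie2, was absent from most hippocampal libraries. It was at 0 in 6 of 10 pre-KD libraries and ranged up to 12.1 CPM, with a median of 0, and it was at 0 in 8 of 10 post-KD libraries, with a maximum of 2.59 CPM. Replicates 8, 9 and 10 held all pre-KD levels above 9 CPM, and the 6 post-KD counts came from 2 libraries. The log2 fold change was -2.94 (SE 1.67, unadjusted p = 0.0591, adjusted p = 0.547, edgeR), and the unadjusted p was 0.0499 without replicate 2 and 0.0329 without replicate 9. Tek in the frontal cortex had 68 counts pre-KD and 64 post-KD, with 3 libraries at 0 in each group (log2 fold change -0.15, SE 1.02). Tie1 gave 0.26 (SE 1.097) in the hippocampus and 0.37 (SE 0.93) in the frontal cortex, and Eng, the endoglin co-receptor for TGF-beta and BMP ligands, gave 0.37 (SE 1.27) and 0.10 (SE 0.71).

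**Figure D4:**
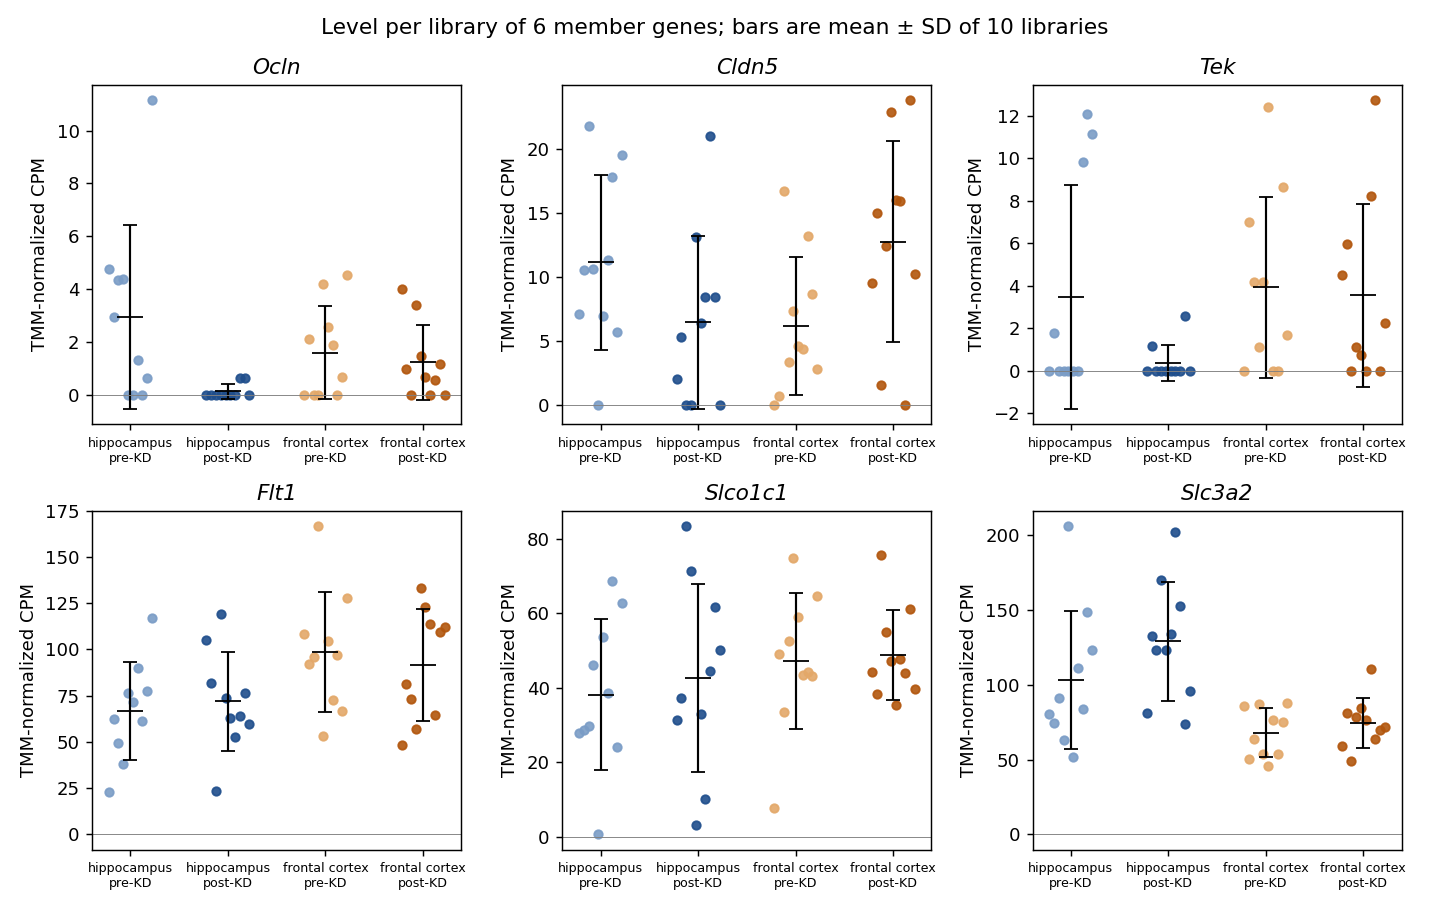
Level of 6 genes in each library (points, y axis in TMM-normalized CPM) in the 4 groups (x axis), with black bars for the mean ± SD of 10 libraries. Ocln and Tek sit mostly at 0 in post-KD hippocampus, Flt1 and Slco1c1 overlap widely between pre-KD and post-KD groups, and Slc3a2 lies higher in the hippocampal groups than in the frontal cortical ones.

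Transporters included the best measured genes, and none passed a threshold post-KD. Slc3a2 ran from 51.4 to 206 CPM (median 87.4) pre-KD and from 73.9 to 202 CPM (median 128) post-KD in the hippocampus. It was higher post-KD in 7 of 10 donor pairs, but the groups overlapped (log2 fold change 0.32, SE 0.22, unadjusted p = 0.151, edgeR). Leaving out replicate 5, whose pre-KD library was the highest of its group, gave 0.49 with an unadjusted p of 0.0296, and leaving out replicate 9 gave 0.45 with 0.0480. The log2 fold change of Slc3a2 in the frontal cortex was 0.13 (SE 0.19). Slc7a5, the LAT1 light chain that carries large neutral amino acids into the brain, gave 0.29 (SE 0.48) in the hippocampus and -0.38 (SE 0.38) in the frontal cortex.

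Slco1c1 and Slco1a4 carry thyroid hormone and other organic anions. Slco1c1 was 38.2 ± 20.3 CPM pre-KD and 42.6 ± 25.3 post-KD in the hippocampus and 47.2 ± 18.3 and 48.8 ± 12.1 in the frontal cortex, with log2 fold changes of 0.15 (SE 0.40) and 0.04 (SE 0.25). Slco1a4 gave -0.34 (SE 0.42) and -0.15 (SE 0.28). The drug efflux pumps stayed within their spread as well, with Abcb1a at -0.08 (SE 0.65) and 0.09 (SE 0.37) and Abcg2 at 0.48 (SE 0.73) and 0.40 (SE 0.49). Mfsd2a, the lipid transporter that also keeps transcytosis low, gave -0.40 (SE 0.78) and -0.35 (SE 0.63). These were 0.07 in the hippocampus without replicate 6 and -0.02 in the frontal cortex without replicate 1.

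Slc38a5, a glutamine transporter, showed how few libraries can carry a fold change. Its 56 pre-KD counts in the hippocampus came from 4 libraries, and its 17 post-KD counts all came from replicate 1, at 11.8 CPM. The log2 fold change was -1.57 (SE 1.51, p = 0.281, edgeR), and without the libraries of replicate 1 it was -5.32 with an unadjusted p of 0.0017 and an adjusted p of 0.112. In the frontal cortex it had 36 and 56 counts (log2 fold change 0.45, SE 1.14).

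Transcription factors were the least expressed of the groups. In the hippocampus all 5 had a negative log2 fold change post-KD and none passed a threshold, with Sox17, which marks arterial endothelium, at -1.52 (SE 1.304), Ets1 at -0.91 (SE 1.09), Fli1 at -0.90 (SE 1.17), Sox18 at -0.43 (SE 1.59) and Erg at -0.03 (SE 1.23). In the frontal cortex 4 of the 5 were positive, between 0.15 and 0.56, and Erg was negative at -1.82 (SE 1.17, p = 0.113, edgeR). Single libraries weighed heavily in these values. Of the 76 Erg counts in pre-KD hippocampus 66 (86.8%) came from replicate 5, and of the 90 Sox17 counts 51 came from the same library. Without replicate 5 the hippocampal difference in Erg turned to 2.26, the highest of the 32 genes in that fit, and that in Sox17 shrank to -0.20. Sox17, Sox18, Fli1 and Ets1 each turned negative in the frontal cortex when 1 of the donors was left out. Without replicate 1 the Erg difference in the frontal cortex was -2.55, with an unadjusted p of 0.0360 (adjusted p = 0.458, edgeR).

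Among the surface and secreted proteins Ly6a, which encodes the Sca-1 antigen that brain endothelial cells carry, had the highest positive fold change of the 32 genes in the hippocampus. It ran from 0 to 17.8 CPM (median 6.60) pre-KD and from 0 to 34.5 CPM (median 20.1) post-KD, and it was higher post-KD in 8 of 10 donor pairs, lower in 1 and equal in 1. The log2 fold change was 1.33 (SE 0.79, unadjusted p = 0.0918, adjusted p = 0.695, edgeR), so the difference did not pass the threshold. In the frontal cortex Ly6a ran from 0 to 19.4 CPM (median 6.07) pre-KD and from 2.70 to 21.5 CPM (median 15.1) post-KD, also higher in 8 of 10 pairs (log2 fold change 0.84, SE 0.61, p = 0.171, edgeR).

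Ly6c1, a lymphocyte antigen that brain capillaries also carry, was 25.95 ± 13.9 CPM pre-KD and 29.8 ± 14.1 post-KD in the hippocampus and 36.7 ± 18.4 and 44.2 ± 8.82 in the frontal cortex (log2 fold changes 0.19, SE 0.45, and 0.27, SE 0.27). Egfl7, a secreted matrix protein of vessels, gave -0.27 (SE 0.48) and 0.15 (SE 0.36), and Itm2a gave -0.08 (SE 0.52) and -0.37 (SE 0.38). Podxl, which helps open vessel lumens, gave -0.68 (SE 0.76) and -0.53 (SE 0.70), but the hippocampal value was -0.13 without replicate 10 and the frontal cortical one 0.34 without replicate 1, which held 71 of the 153 pre-KD counts. The sialomucin gene Emcn gave 0.11 (SE 1.17) and -0.36 (95% interval -2.35 to 1.63), with hippocampal values from -0.43 without replicate 3 to 1.39 without replicate 5 and frontal cortical ones from -1.09 without replicate 3 to 0.20 without replicate 10. Vwf gave -0.89 (SE 1.25) and 0.79 (SE 1.11), and these were 0.0025 in the hippocampus without replicate 7 and 0.28 in the frontal cortex without replicate 10.

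Both regions came from the same cohorts of mice, so the frontal cortex was also compared with the hippocampus with the cohort as a block. Of the 32 genes, 1 passed an adjusted p under 0.05 (edgeR), where 2.85% of the 19422 genes tested did and 0.87% did so with a lower level in the frontal cortex. That gene was Slc3a2 (chromosome 19, 8706882 to 8723369, minus strand), which ran from 45.5 to 87.5 CPM pre-KD and from 49.1 to 110 CPM post-KD in the frontal cortex beside 51.4 to 206 and 73.9 to 202 CPM in the hippocampus. It was lower in the frontal cortex in 18 of 20 cohorts, namely 8 of 10 pre-KD and 10 of 10 post-KD, although the ranges of the regions overlapped. The log2 fold change was -0.64 (SE 0.16, adjusted p = 0.0032, edgeR), and the adjusted p stayed between 1.2e-05 and 0.0043 in the alternatives that were run. Its partner Slc7a5 gave -0.21 (SE 0.37), lower in 13 of 20 cohorts.

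Positive differences prevailed among the other genes, as they did among all genes in this comparison. Of the 32 genes 24 (75.0%) had a log2 fold change above 0, where 62.7% of all genes did, and the median was 0.34 beside 0.17 over all genes. Without the cohort block 18 of the 32 were above 0 and the median was 0.10 beside 0.02. With the block all 6 junction genes and all 6 receptors were above 0, with medians of 0.84 and 0.76, and 5 of 8 transporters, 3 of 5 transcription factors and 4 of 7 surface and secreted proteins were. Without it Tjp1 was at -0.04 and Tie1 at -0.30, and mean CPM over 20 libraries were lower in the frontal cortex than in the hippocampus for these genes (29.96 against 30.9 and 5.73 against 7.03) and for Ocln (1.41 against 1.54). An unadjusted p under 0.05 was reached by 5 of the 32 genes where 10.9% of all genes reached it, and 4 of these 5 were higher in the frontal cortex where 8.12% of all genes were. They were Flt1 at 0.49 (SE 0.18, p = 0.0051), Pecam1 at 1.77 (SE 0.78, p = 0.0175), Ly6c1 at 0.59 (SE 0.29, p = 0.0403) and Tek at 2.62 (SE 1.63, p = 0.0316), with adjusted p-values of 0.130, 0.282, 0.420 and 0.377 (edgeR). The count of 5 was 6 with DESeq2 (Eng in addition), 4 with RLE size factors (without Ly6c1), 4 with filterByExpr, which did not test Tek, and 3 with no block (without Pecam1 and Tek). DESeq2 in addition gave Pecam1 an adjusted p of 0.0224.

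Flt1 was higher in the frontal cortex in 14 of 20 cohorts, with 7 of 10 in each condition, and the ranges of the regions overlapped. Pecam1 was at 0 in 7 of 20 hippocampal and in none of the 20 frontal cortical libraries, and was higher in the frontal cortex in 13 of 20 cohorts. Tek was at 0 in 14 of 20 hippocampal and 6 of 20 frontal cortical libraries. Eng, which did not pass a threshold (1.51, SE 0.90, p = 0.0811, edgeR), was higher in 16 of 20 cohorts, lower in 3 and equal in 1.

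**Figure D5:**
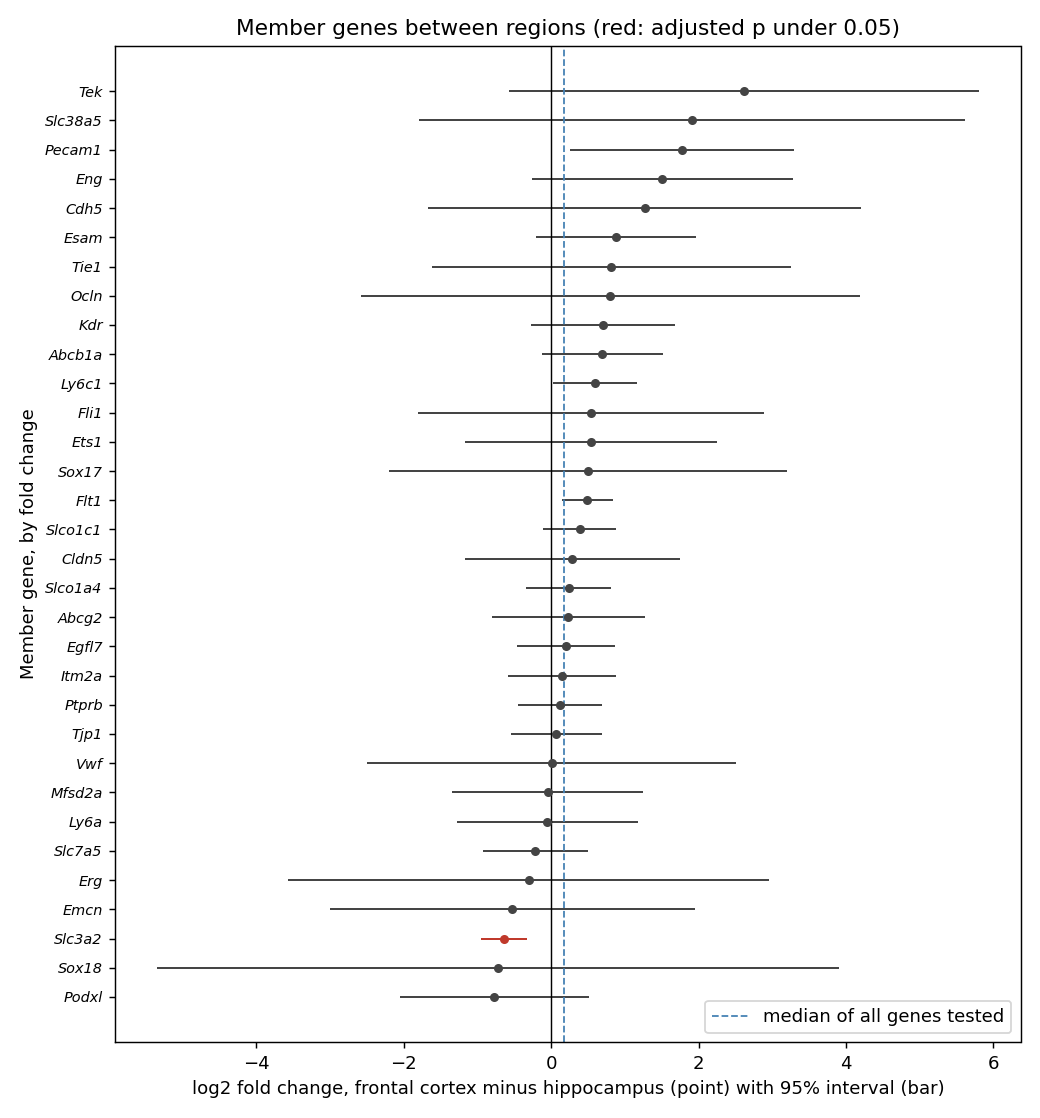
Log2 fold change of the frontal cortex against the hippocampus (x axis) for each of the 32 genes (rows, from highest to lowest), with points for the estimate and bars for its 95% interval from 40 libraries with the cohort as a block. The dashed line marks the median of all genes tested, 0.17, and red marks Slc3a2, the gene with an adjusted p under 0.05.

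A wider list of 45 other genes of endothelium and the barrier gave 44 that could be tested in either region by condition, and none had an adjusted p under 0.05 post-KD. In the hippocampus 2 of 44 had an unadjusted p under 0.05 and in the frontal cortex 2 of 44 did, where 10.1% and 9.68% of all genes had one, with medians of -0.08 and -0.07. Marveld2 (tricellulin), a tight junction protein of tricellular corners, was among them in both regions. It had 8 counts pre-KD and 111 post-KD in the hippocampus, of which 52 came from 1 library (log2 fold change 3.60, SE 1.45, p = 0.0101, adjusted p = 0.152, edgeR), and 5 and 58 in the frontal cortex (3.12, SE 1.40, p = 0.0175, adjusted p = 0.276). Foxf2, a transcription factor of pericytes that vessels need for barrier function, had 79 counts pre-KD, 49 of them in replicate 5, and 4 post-KD in the hippocampus (-3.96, SE 1.64, p = 0.0100, adjusted p = 0.152, edgeR). Adgra2 (Gpr124), a co-receptor for Wnt7, had 2 counts pre-KD and 34 post-KD in the frontal cortex, the latter in 3 libraries (3.08, SE 1.71, p = 0.0370, adjusted p = 0.443, edgeR). None of the 4 values kept an unadjusted p under 0.05 with the donor as a replicate block, where the p-values were 0.149 and 0.117 for Marveld2, 0.271 for Foxf2 and 0.241 for Adgra2 (edgeR).

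Ligands of the receptors were measured too. Of 11 VEGF, angiopoietin, TGF-beta, BMP and Wnt ligands and norrin, 10 had enough hippocampal reads for a test and all 11 enough in the frontal cortex, and none passed an adjusted p under 0.05 post-KD. Bmp6, a BMP ligand, was the 1 with an unadjusted p under 0.05, where 9.68% of all genes in the frontal cortex had one, with 2 counts in 1 pre-KD library and 38 in 3 post-KD libraries of the frontal cortex (3.44, SE 1.70, p = 0.0194, adjusted p = 0.297, edgeR). Under the donor block its p was 0.280. Between the regions, Tgfb2 was the 1 ligand past an adjusted p under 0.05. It was 93.4 ± 34.3 and 73.5 ± 28.0 CPM in pre-KD and post-KD hippocampus and 24.9 ± 16.4 and 18.4 ± 8.81 CPM in the frontal cortex, and it was lower in the frontal cortex in 20 of 20 cohorts (-2.07, SE 0.23, adjusted p = 7.9e-17, edgeR). Of the 44 other endothelial genes Nr2f2 (COUP-TFII), the factor of venous identity that some neurons also make, was the 1 that passed, with 121 ± 44.0 and 115 ± 46.6 CPM in the hippocampus and 37.5 ± 11.7 and 36.0 ± 13.7 CPM in the frontal cortex (-1.67, SE 0.18, adjusted p = 5.4e-17, lower in 20 of 20 cohorts, edgeR).

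Markers of other cell types differed between the libraries and, for some, between the regions. Sums over the 10 pericyte and smooth muscle markers had means of 187 and 197 CPM in pre-KD and post-KD hippocampus and 197 and 180 CPM in the frontal cortex, with ranges of 126 to 275, 134 to 324, 139 to 271 and 125 to 262, and 0 of 10 passed an adjusted p under 0.05 in any comparison. Abcc9, a subunit of a potassium channel of pericytes that is named after its values were seen, had an unadjusted p under 0.05 in the hippocampus, with 194 counts pre-KD and 16 post-KD, lower post-KD in 8 of 10 donor pairs (-3.20, SE 1.205, p = 0.0074, adjusted p = 0.115, edgeR), and its part in the hippocampal values of Ocln was not tested. It was the 1 of 10 with such a p there, where 10.1% of all genes had one, and 7 of the 10 had a positive log2 fold change post-KD, with a median of 0.35. The 8 choroid plexus markers summed to 726 to 5560 CPM in the hippocampus and 131 to 881 CPM in the frontal cortex, with all 8 lower in the frontal cortex and 5 at an adjusted p under 0.05 (edgeR). The 8 meningeal fibroblast markers summed to 141 to 419 CPM in the hippocampus and 74.8 to 207 CPM in the frontal cortex, and 2 of 8 passed, both lower in the frontal cortex. Of these 8 markers 4 had a log2 fold change above 0 and 4 below 0, with a median of 0.08. Neither list held a marker at 0 throughout a group, and the part of these cells in the regional differences of Slc3a2, Tgfb2 and Nr2f2 was not tested.

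Blood, astrocyte, microglial and neuronal markers gave no adjusted p under 0.05 post-KD in either region (edgeR). Blood markers, 5 hemoglobin and heme synthesis genes of which Hba-a2 was at 0 in every library, summed to 702 ± 209 and 763 ± 233 CPM in pre-KD and post-KD hippocampus and to 738 ± 246 and 976 ± 257 CPM in the frontal cortex. In the frontal cortex 2 of the 4 tested genes had a negative log2 fold change, the lowest at -0.07. The other 2 (Hba-a1 and Hbb-bs, both higher post-KD) had an unadjusted p under 0.05, as 9.68% of all genes did. Of the 8 microglial markers 2 also had one there, 1 in each direction, and 4 of the 8 were positive (median log2 fold change 0.02). The neuronal marker Camk2a, lower post-KD, was the 1 of 8 neuronal markers with one, and these genes are named after their values were seen. The part of these cells in the frontal cortical values of the 32 genes was not tested. Between the regions all 4 tested blood markers had a positive difference (median log2 fold change 0.36), and Hbb-bs, Hbb-bt and Alas2 had an unadjusted p under 0.05 but no adjusted one, and their part in the regional values of the 32 genes was not tested. The 8 astrocyte markers summed to 2398 to 3082 CPM in the hippocampus and 2300 to 3153 CPM in the frontal cortex, and the 8 microglial ones to 111 to 294 and 146 to 269 CPM. Of the neuronal markers 2 of 8 were higher in the frontal cortex at an adjusted p under 0.05.

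Reads of some of the 32 genes may not be theirs alone. If reads fell along whole transcripts, of all 69-base windows along the annotated transcripts of Ly6c1, 22.3% also occurred in another gene, mostly its copy Ly6c2, and the share was 13.4% for Abcb1a, mostly with Abcb1b, 9.15% for Ly6a and 3.38% for Egfl7. On the opposite strand another gene covered 16.8% of the exon bases of Sox17 and 10.1% of those of Abcb1a, 4 genes, mainly Gm20532 on the same strand, covered 11.2% of those of Egfl7, and the strand setting of the counting is not given in the sources used here. Levels and differences of these genes are uncertain.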

How the data were processed

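RNA from the hippocampus and frontal cortex was sequenced as 69-bp paired reads on an Illumina HiSeq instrument with a TruSeq kit, as the labels and the methods state. The study's list of materials instead names a 3′ kit (QuantSeq FWD) and the aligner HISAT2, and which of the descriptions holds for these libraries could not be settled here. By their methods, the authors aligned reads to mm10 with STAR 2.5.2a and deposited raw gene counts from HTSeq-count 0.6.0, after quality checks with FastQC 0.11.5 and handling with SAMtools 1.3. The annotation release, the strand setting and the treatment of reads that map to several genes are not given in the sources used here. Columns were tied to samples by name. Of 47643 gene IDs, 47224 matched a symbol and 419 did not, and no 2 libraries held identical counts.

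A gene entered a fit when its counts over all libraries of that fit reached 10, and was tested with the edgeR 4.0.16 quasi-likelihood test (R 4.3.3, TMM normalization, 2-sided), and Benjamini-Hochberg adjustment covered every gene in the fit. The fits compared post-KD with pre-KD in each region (20 libraries), and the regions over 40 libraries with the 20 cohorts as blocks, with and without a region by condition term. Log2 fold changes of edgeR carry its small default prior count, while SEs come from coefficients without it. An interval of a weakly expressed gene may therefore include 0 although its unadjusted p is under 0.05. Log2 CPM values were computed with a prior count of 2. Each library pools 6 mice of a cohort, and p-values measure the spread between such pools. Alternatives were DESeq2 1.42.0, RLE size factors, no filter on low counts, edgeR's filterByExpr, the donor as a replicate block or no cohort block, CPM on raw totals, mean log2 CPM, and each donor left out in turn. The scripts were tested on simulated counts first.

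Libraries of the same donor are paired by design, as are both regions of a cohort. Over genes with a mean of at least 20 counts, deviations from the group means correlated between libraries of 1 donor at -0.03 to 0.03 in the hippocampus (8016 genes) and -0.06 to 0.03 in the frontal cortex (8255 genes). Between the regions of 1 cohort the correlations were -0.02 to 0.20 (8157 genes), with 1 of 20 over 0.1.

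The 32 genes and the other lists were chosen with earlier results of these data known. All 32 are named. Of the other endothelial genes and the ligands, those with an unadjusted p under 0.05 by condition were named, with up to 3 in each direction of the most changed past an adjusted p under 0.05 between regions. Marker lists of other cells are given as counts and sums. Python 3.11.15, pandas 2.3.3, numpy 2.4.6, scipy 1.17.1 and matplotlib 3.10.9 were used for summaries and plots. Intervals on ratios of counts are exact at the 95% level and cover counting error only. A result for 1 item is not reported here.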

Additional observations from a re-analysis of the deposited data

Results flagged for a closer look

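Each of the 32 genes and the sum were looked at in each group of 10 libraries for a single library far from the others (Dixon's test at its 95% critical value), and 29 of 132 groups held one, where chance gives about 1 in 20 for normally distributed values. Levels with many zeros and a long upper tail are flagged more often and on the high side, so the number of flags cannot be read against that share. All 29 were high values, 20 of them in the hippocampus, and they fell on 21 genes.

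In pre-KD hippocampus 11 genes stood out. Replicate 5 was the high one for Erg (48.01 CPM), Sox17 (37.1 CPM), Esam (33.5 CPM) and Emcn (32.01 CPM). Replicate 10 was high for Ptprb (89.8 CPM), Podxl (57.1 CPM) and Ocln (11.1 CPM), replicate 7 for Itm2a (105.5 CPM) and Vwf (26.7 CPM), replicate 2 for Tjp1 (78.6 CPM) and replicate 9 for Tie1 (30.5 CPM). In post-KD hippocampus the high libraries were replicate 6 for Ptprb (77.3 CPM) and Tjp1 (71.7 CPM), replicate 9 for Eng (14.9 CPM), Cdh5 (7.77 CPM) and Tek (2.59 CPM), replicate 1 for Slc38a5 (11.8 CPM) and Sox17 (9.73 CPM), replicate 7 for Abcb1a (42.99 CPM) and replicate 8 for Fli1 (19.7 CPM).

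Fewer genes stood out in the frontal cortex. Pre-KD replicate 1 was high for Itm2a (67.1 CPM), Podxl (55.4 CPM) and Abcg2 (39.04 CPM), and replicate 4 for Tie1 (18.7 CPM). Post-KD, replicate 3 was high for Ets1 (31.3 CPM) and Emcn (17.3 CPM), replicate 6 for Egfl7 (72.7 CPM), replicate 5 for Tie1 (27.3 CPM) and replicate 2 for Sox18 (3.49 CPM).

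The post-KD change of Cldn5 differed between the regions by 2.87 on the log2 scale, with an unadjusted p of 0.0377 in a test of the difference itself, but it failed the correction (adjusted p = 1, edgeR). Without the cohort block the value was 1.80 with an unadjusted p of 0.106, and the 1 gene of 32 under 0.05 was then Ocln.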

How the results depend on the processing

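No alternative gave an adjusted p under 0.05 to any of the 32 genes by condition, and Slc3a2 passed it between the regions in each alternative run there. The count of hippocampal genes with an unadjusted p under 0.05 (1, Ocln) was 0 with filterByExpr, which tests 18 of the 32 genes and not Ocln, and 0 with the replicate block. Leaving out each donor in turn gave 1 to 4 in the hippocampus, and 0 to 1 in the frontal cortex. The frontal cortical median of 0.10 was -0.05 without replicate 3. Between the regions the count of 5 was 3 with no replicate block (Slc3a2, Flt1 and Ly6c1), and DESeq2 gave 2 genes in place of 1 past the adjusted p. With no replicate block the 1 gene whose change was unequal between the regions was Ocln and not Cldn5. The summed level, post-KD minus pre-KD in SD, was 0.27 (hippocampus) and -0.02 (frontal cortex), and on mean log2 CPM -0.47 and 0.40, all within 1 SD.

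Signs turned for genes near 0 or with a large SE, and none of these genes passed the threshold as reported. With the replicate block (pairing by donor) the hippocampal values were 0.21 for Kdr, -1.40 for Tie1, 0.046 for Ptprb and 0.26 for Erg, and the frontal cortical ones 0.14 for Tjp1, -0.84 for Tie1, -0.92 for Sox18, -0.10 for Ets1 and 0.42 for Podxl. Hippocampal Kdr was 0.0264 with DESeq2, 0.0263 with RLE and 0.0126 with filterByExpr. Between the regions with no replicate block Tjp1 was -0.037, Tie1 -0.30, Sox17 -0.41, Fli1 -0.11, Itm2a -0.15 and Vwf -0.57, and Vwf was -0.0212 with RLE and -0.0322 with filterByExpr. The cause was not tested. The pairing changed no other call among the 32 genes by condition.

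How many of all genes passed depended on the tool. An unadjusted p under 0.05 was given to 1762 hippocampal genes by edgeR, 569 by DESeq2, 348 with the block and 221 with filterByExpr, and to 1731, 756, 548 and 407 frontal cortical genes. With no filter they were 2931 and 3035, and 1291 hippocampal genes passed the adjusted p. Between the regions 554 genes passed the adjusted p, 1026 with DESeq2 and 1935 with no block. For the difference in change, 431 genes had an unadjusted p under 0.05, 948 with DESeq2 and 1767 with no block, and 348 in place of 3 passed the adjusted p with no block.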
